A study of Mus musculus with 6 samples.

Results

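The genes followed here are 9 that are widely used as reference genes for qPCR, and they were taken by name from the gene annotation deposited with the counts: Gapdh, Actb, B2m, Hprt, Ppia, Tbp, Ywhaz, Gusb and Tfrc2. Of the 9 names, 8 matched a gene among the 54532 genes of the tables, and all 8 passed the filter on low counts. No gene carries the name Tfrc2, so the transferrin receptor genes Tfrc and Tfr2 are given below only as non-members. The cells were wild-type mouse BMSCs (bone marrow mesenchymal stromal cells), which attach to the dish and can turn into bone-forming osteoblasts. Every culture received osteogenic medium with dexamethasone, ascorbic acid and β-glycerophosphate for 7 days. In addition, 3 cultures received 0.1 μM NiCl2 (Ni) and 3 received vehicle (control), and the RNA of each was sequenced as an independent biological replicate. The study's methods and the sample labels give different dexamethasone concentrations for this medium, and the age of the mice is not given in the labels.

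A qPCR measurement counts the amplification cycles of a target transcript and divides out the amount of input RNA with a second transcript that is taken to be present at an equal level in every sample. The usual choices are genes of basic cell functions, such as glycolysis, the cytoskeleton, transcription or protein folding, because nearly every cell transcribes them. Several of these genes are old and highly transcribed, and processed pseudogenes (copies of their mRNA that were written back into the genome) are spread over many chromosomes. In this study qPCR was normalized to Gapdh and the protein of Actb served as the loading control of Western blots. The comparison below asks how even each of these genes was over the 6 libraries, and by how much it differed between the Ni and the control group.

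The 6 libraries held from 16101033 to 18642504 counts on genes, of which the 8 reference genes took from 0.690% to 0.963%. Levels are given as CPM (counts scaled to the library total) after TMM scaling, and the spread is the coefficient of variation (CV), the SD over the 6 libraries as a percentage of their mean. Control replicate 3 stood apart from the other controls: chi-square per degree of freedom over genes was 44.6 and 48.0 between it and control replicates 1 and 2, against 8.70 between those. Summed CPM, without TMM scaling, of 8 stromal markers was 9603 and 10283 in control replicates 1 and 2, 16886 in control replicate 3 and 21386 to 26023 in the Ni libraries. Most of this sum came from the collagen genes Col1a1, Col1a2 and Col3a1, which osteoblasts also transcribe. Of the other stromal markers, Pdgfra, a growth factor receptor, was at 66.6, 61.1 and 70.7 CPM in control and at 68.8, 67.3 and 71.8 CPM in Ni. Lum was at 64.4 ± 23.4 CPM in control and 124 ± 32.0 CPM in Ni (SD, n = 3), Dcn at 75.4 ± 16.2 and 131 ± 38.8 CPM, and Pdgfrb at 92.6 ± 13.1 and 107 ± 3.89 CPM. Of the 8, 7 had a positive log2 fold change. At an unadjusted p under 0.05, 5 of the 8 were higher in Ni, against 7.59% of all genes tested, and 0 passed an adjusted p of 0.05 (edgeR). Summed CPM of 7 osteoblast markers was 1128, 1013 and 2907 in control and 5829, 3192 and 6442 in Ni. Most of it came from 1 gene, Ibsp, at 935, 827 and 2555 CPM in control and 5333, 2792 and 5874 CPM in Ni. All 7 markers were higher in Ni at an unadjusted p under 0.05, against 7.59% of all genes tested, and none at an adjusted p under 0.05 (edgeR). Summed CPM of 12 macrophage markers was also high, from 26892 to 32624, so that these bone marrow cultures held transcripts of macrophages beside those of stromal cells. Of the 4 lymphocyte markers 3 had no count in any library, as had 2 of the 3 erythroid and 4 of the 8 neutrophil markers.

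Across all 14624 genes tested, 0 genes (0%) passed an adjusted p of 0.05 and 1963 (13.4%) had an unadjusted p under 0.05 (quasi-likelihood test of edgeR, adjusted by Benjamini-Hochberg), while DESeq2's Wald test called 257 at an adjusted p under 0.05. Of the 8 reference genes, none passed the adjusted threshold and 1, Actb, had an unadjusted p under 0.05. The Ni and control libraries did not overlap for 2 of the 8, Gapdh and Gusb, against 14.7% of all genes. The log2 fold change was negative for 6 of the 8, against 51.9% of all genes tested. A CV below the median of all genes tested was found for 4 of the 8. That median was 14.5%, with quartiles of 9.04% and 25.3%.

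**Figure D1:**
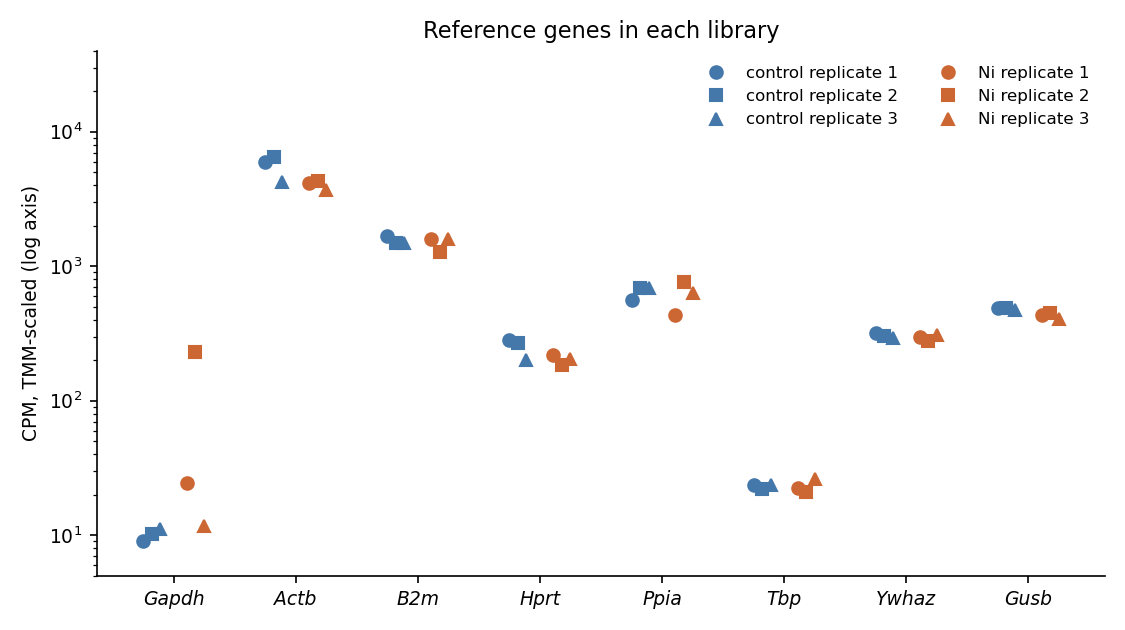
CPM of the 8 reference genes in each library, with a log vertical axis, control libraries in blue and Ni libraries in orange, and a marker shape for each replicate number. Gapdh runs from 9.02 to 229 CPM, with Ni replicate 2 far above the other libraries, whereas the 6 points of Ywhaz lie between 277 and 317 CPM.

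Gapdh encodes glyceraldehyde-3-phosphate dehydrogenase, an enzyme of glycolysis (ENSMUSG00000057666, chr6:125161715-125166467, minus strand, GRCm38). It was listed at 165, 163 and 185 counts in the control libraries and at 448, 3977 and 212 counts in the Ni libraries. In CPM these were 9.02, 10.3 and 11.1 against 24.3, 229 and 11.7. All 3 Ni libraries were above the 3 controls, but Ni replicate 3 was so by a small margin and Ni replicate 2 held by far the most. The highest library was 25.4-fold above the lowest, and the CV of 179% was the highest of the reference genes and at the 100th percentile of all genes tested, where 9 genes had a CV over 100%. The log2 fold change was 3.12 ± 1.29 (SE, n = 3 per group) with an adjusted p of 0.391 (edgeR's quasi-likelihood test), and without Ni replicate 2 it was 0.83 with an adjusted p of 0.259.

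Per gene length, on the deposited FPKM scale (fragments scaled to gene length and library total), the level of Gapdh was also low for an enzyme of this pathway. Its median over the 6 libraries was 2.74 FPKM, against 419 FPKM for Pkm, pyruvate kinase, and 479 FPKM for Aldoa, an aldolase that acts upstream of the enzyme encoded by Gapdh. The transcript sequence bears on how reads of Gapdh can be counted. Of the 1223 stretches of 50 bases in its principal transcript, 1106 (90.4%) also occur in transcripts of other annotated genes, 222 genes in all. Among these, 70 are annotated as pseudogenes that hold at least 10% of the stretches, and 65 of the 70 had counts here.

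The copy with the most counts was Gm13394, a processed pseudogene of 1000 bases in 1 exon (ENSMUSG00000083773, chr2:28933610-28934609, minus strand). Its sequence aligned with all 999 coding bases of Gapdh and differed from them at 1 base, and the longest run without a difference was 653 bases. The 60 coding bases around that difference, positions 316 to 375 of the coding sequence, are shown because they hold the only base of the coding sequence by which a read of the gene can be told from a read of this copy; the capital letter marks it. The Gapdh stretch crosses an exon junction within chr6:125162987-125163144, and that of Gm13394 lies without a break at chr2:28934235-28934294, both on the minus strand.
Gapdh: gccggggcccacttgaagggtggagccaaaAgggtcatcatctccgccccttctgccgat
Gm13394: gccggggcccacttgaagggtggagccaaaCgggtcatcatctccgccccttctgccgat

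Gm13394 was listed at 10461, 8083 and 10667 counts in control and at 16264, 11622 and 15248 in Ni, from 2.92-fold to 71.9-fold the counts of Gapdh in the same library. Of the other copies, only 3 reached more than 100 counts in any library, and none took more than 1.93% of the summed counts of Gapdh and its copies. Ni replicate 2, the library with the most counts on Gapdh, had the fewest counts of the Ni libraries on Gm13394. The counts do not show whether a read listed under Gm13394 came from RNA of Gapdh or of the copy, so these cannot be told apart here.

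Gapdh and its 70 pseudogene copies were therefore also summed. The sum was 606, 546 and 687 CPM in control and 950, 941 and 895 CPM in Ni. The 3 Ni libraries now lay close together and above every control, a separation that 14.7% of all genes showed in this table. Gapdh itself took 24.3% of the sum in Ni replicate 2 and from 1.31% to 2.56% in the other 5 libraries. The CV of the sum was 23.3%, at the 71.5th percentile of all genes, in place of 179% for the gene alone. Within groups it was 11.5% in control and 3.18% in Ni, so that most of the spread of the sum lay between the groups. Between the groups the sum differed by a log2 fold change of 0.60 ± 0.12 (SE, n = 3 per group) with an unadjusted p of 0.000446, in a fit where 13.5% of genes had an unadjusted p under 0.05. It did not pass the adjustment over all genes (adjusted p of 0.209, edgeR). The sum passed with DESeq2's Wald test, at an adjusted p of 0.000154. Without control replicate 3 it passed at an adjusted p of 0.000307 (edgeR) and a log2 fold change of 0.69. In the same 2 settings without the copies added, 257 of 14065 and 2283 of 15044 genes passed. Leaving out any other single library, the adjusted p of the sum ran from 0.146 to 0.759 (edgeR).

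**Figure D2:**
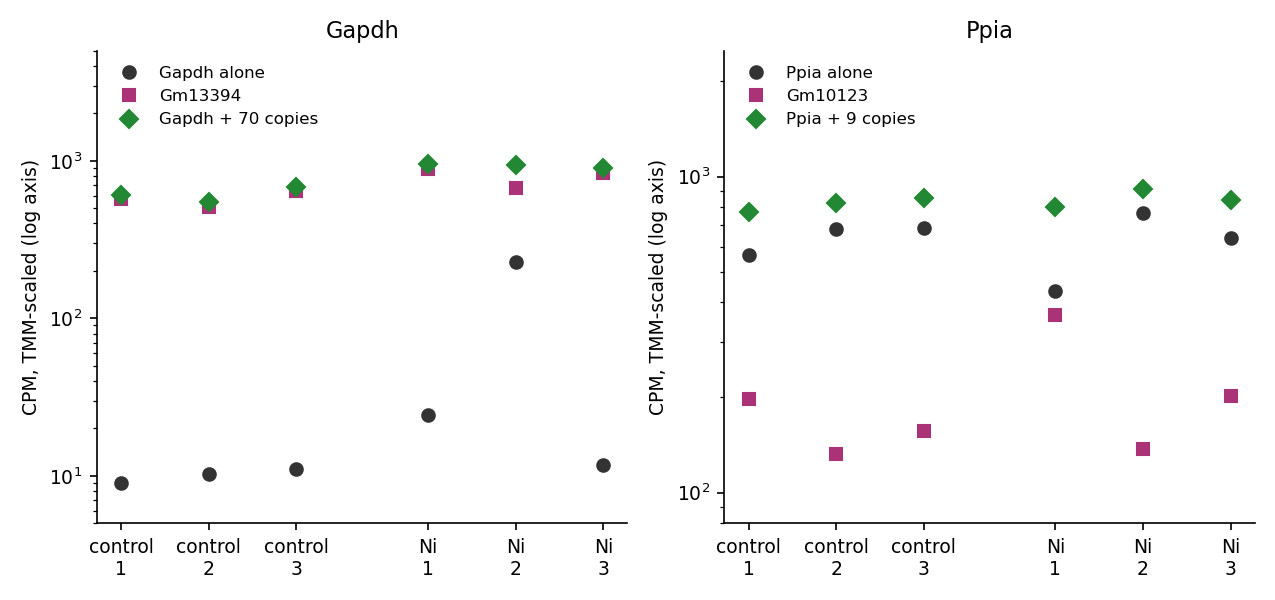
CPM on log axes in each library for Gapdh (left) and Ppia (right), with the gene alone as circles, its most counted pseudogene copy as squares and the sum of the gene and all its copies as diamonds. The sum of Gapdh and its copies lies at 546 to 687 CPM in control and 895 to 950 CPM in Ni, and the sum of Ppia and its copies at 770 to 915 CPM in all 6 libraries.

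Ppia encodes cyclophilin A, a peptidyl-prolyl isomerase that helps proteins fold (ENSMUSG00000071866, chr11:6415443-6419817, plus strand). Its levels were 564, 685 and 689 CPM in control and 433, 767 and 637 CPM in Ni. Ni replicate 1 was the lowest library and Ni replicate 2 the highest, so the Ni group spanned the control group. The CV was 18.6%, the third highest of the reference genes, and the log2 fold change was -0.08 ± 0.19 (SE, n = 3 per group) with an adjusted p of 0.896 (edgeR).

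Of the 50-base stretches of the Ppia transcript, 54.3% occur in other genes, 38 in all, 9 of them pseudogene copies by the same measure. Gm10123, a processed pseudogene of 490 bases (ENSMUSG00000062933, chr9:96895658-96896147, plus strand), matched 490 of the 492 coding bases of Ppia with 0 differences. The first 60 coding bases are shown as an example of a stretch that cannot assign a read to either gene, at chr11:6415911-6415970 for Ppia and at chr9:96895658-96895717 for Gm10123, both on the plus strand. No letter is in capitals because no base differs.
Ppia: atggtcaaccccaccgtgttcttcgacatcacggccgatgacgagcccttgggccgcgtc
Gm10123: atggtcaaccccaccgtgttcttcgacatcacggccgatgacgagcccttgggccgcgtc

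Gm10123 was at 197, 133 and 157 CPM in control and at 364, 138 and 203 CPM in Ni, so that it was highest in the library where Ppia was lowest. Ppia and its 9 copies summed to 770, 825 and 853 CPM in control and to 802, 915 and 844 CPM in Ni. The groups overlapped, and the CV was 5.93%, at the 9.18th percentile of all genes, in place of 18.6% for the gene alone. Ppia took from 54.0% of the sum, in Ni replicate 1, to 83.9%, in Ni replicate 2. For the sum, the log2 fold change was 0.07 ± 0.11 (SE, n = 3 per group) with an adjusted p of 0.833 (edgeR), the opposite sign of that of the gene alone.

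Actb encodes β-actin, a subunit of the actin filaments of the cytoskeleton (ENSMUSG00000029580, chr5:142903115-142906754, minus strand). It was at 5928, 6493 and 4199 CPM in control and at 4121, 4330 and 3656 CPM in Ni. Control replicates 1 and 2 were above every other library, while control replicate 3 lay between the Ni libraries. The means were 5540 ± 1195 CPM in control and 4036 ± 345 CPM in Ni (SD, n = 3), and the CV was 23.8%. The log2 fold change was -0.46 ± 0.18 (SE, n = 3 per group) with an unadjusted p of 0.0261 and an adjusted p of 0.339 (edgeR); 5.83% of all genes were lower in Ni at an unadjusted p under 0.05. Without control replicate 3 it was -0.62 with an adjusted p of 0.00132 (edgeR), in a fit where 2283 of 15044 genes passed. With no filter on low counts it was -0.44 with an adjusted p of 0.0218 (edgeR), where 1027 of 25876 genes passed. Leaving out any other single library, the adjusted p of Actb ran from 0.287 to 0.83 (edgeR).

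Control replicates 1 and 2, the libraries with the most Actb, had the lowest summed stromal and osteoblast markers. These sums came mostly from collagen genes and Ibsp. Within the stromal list Pdgfra stayed between 61.1 and 71.8 CPM in all libraries, while Lum and Dcn were lowest in those controls. The macrophage marker Adgre1 was highest in them, at 3729, 3781 and 2553 CPM in control and 2793, 2342 and 2753 CPM in Ni. Lyz2, another macrophage marker, was lowest in them and highest in control replicate 3. Of the 12 macrophage markers 4 had a positive log2 fold change. At an unadjusted p under 0.05 (edgeR) 1 of the 12 was lower in Ni, against 5.83% of all genes. The part of cell composition in this difference of Actb was not tested. In RNA from whole cultures, fewer cells of a type and less of an RNA per cell cannot be told apart. Other genes hold 14.2% of the 50-base stretches of Actb, none of them a pseudogene copy with 10% or more. Lrrc58, a gene of leucine-rich repeats, shares the most stretches, 179, and was listed at 1851 to 2635 counts against 66182 to 108483 for Actb.

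Hprt encodes hypoxanthine-guanine phosphoribosyltransferase, which salvages purines (ENSMUSG00000025630, chrX:52988137-53021659, plus strand). Its levels were 282, 270 and 200 CPM in control and 219, 183 and 204 CPM in Ni. As for Actb, control replicates 1 and 2 were the highest libraries and control replicate 3 lay among the Ni libraries. The log2 fold change was -0.31 ± 0.14 (SE, n = 3 per group) with an adjusted p of 0.374 (edgeR). Without control replicate 3 it was -0.44 with an adjusted p of 0.00742 (edgeR), in a fit where 2283 of 15044 genes passed. Leaving out any other single library, the adjusted p of Hprt ran from 0.462 to 0.845 (edgeR). The CV was 17.7%, at the 60.2nd percentile of all genes, and no 50-base stretch of Hprt occurs in another gene.

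Gusb encodes β-glucuronidase, a lysosomal enzyme that breaks down glycosaminoglycans (ENSMUSG00000025534, chr5:129989011-130003049, minus strand). It was at 492, 491 and 471 CPM in control and at 430, 446 and 405 CPM in Ni. All 3 Ni libraries were below all 3 controls, with 484.7 ± 12.2 CPM against 427 ± 20.3 CPM (SD, n = 3). The difference was small in size, with a log2 fold change of -0.18 ± 0.10 (SE, n = 3 per group) and an adjusted p of 0.438 (edgeR). The exact two-sided permutation test gave p = 0.1, the smallest that 3 libraries against 3 allow. The CV over all libraries was 7.65%, while the CV within groups was 2.52% in control and 4.76% in Ni. A low CV and groups without overlap thus occurred together here. Groups without overlap were found for 14.7% of all genes tested.

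Ywhaz encodes the zeta form of the 14-3-3 proteins, adaptors that bind phosphorylated partners (ENSMUSG00000022285, chr15:36770770-36796929, minus strand). Its levels were 317, 305 and 295 CPM in control and 296, 277 and 310 CPM in Ni. The groups overlapped and the highest library was 1.14-fold above the lowest. The CV of 4.67% was the lowest of the reference genes and at the 4.47th percentile of all genes tested, and the log2 fold change was -0.05 ± 0.10 (SE, n = 3 per group) with an adjusted p of 0.851 (edgeR). Other genes hold 19.9% of its 50-base stretches, but adding its 1 pseudogene copy, Gm4202, moved the CV only to 4.48%.

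Tbp encodes the TATA-binding protein, which helps place RNA polymerase II at promoters (ENSMUSG00000014767, chr17:15499888-15528379, plus strand). It was at 23.5, 22.0 and 23.6 CPM in control and at 22.3, 20.95 and 26.0 CPM in Ni. Its group means were equal to 3 digits, 23.1 ± 0.877 CPM in control and 23.1 ± 2.60 CPM in Ni (SD, n = 3), with a standard error of 0.12 on a log2 fold change of 0.00 and a CV of 7.53%.

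B2m encodes β2-microglobulin, the light chain of MHC class I molecules on the cell surface (ENSMUSG00000060802, chr2:122147686-122153083, plus strand). Its levels were 1664, 1488 and 1486 CPM in control and 1594, 1268 and 1603 CPM in Ni, with Ni replicate 2 the lowest and the groups overlapping. The CV was 9.27%, and 4.97% without Ni replicate 2. The log2 fold change was -0.06 ± 0.13 (SE, n = 3 per group) with an adjusted p of 0.892 (edgeR). Neither Tbp nor B2m nor Gusb shares a 50-base stretch with another gene.

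**Figure D3:**
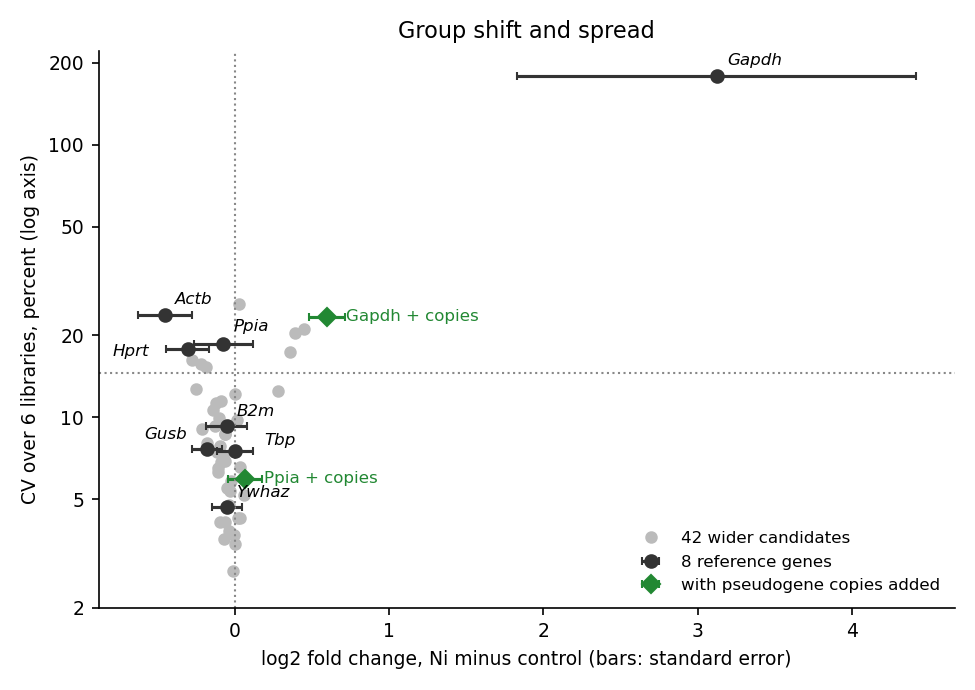
Log2 fold change of Ni over control with its standard error (horizontal) against the CV over the 6 libraries on a log axis (vertical) for the 8 reference genes (black), for Gapdh and Ppia with their pseudogene copies added (green) and for 42 other genes in use as reference genes (grey); the dotted horizontal line is the median CV of all genes, 14.5%. Gapdh lies alone at a CV of 179%, and with its copies added it lies at 23.3%, close to Actb at 23.8%.

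Of the transferrin receptor genes that stand nearest to the unmatched name, Tfrc, which takes up iron-loaded transferrin, was at 210, 160 and 240 CPM in control and at 171, 182 and 181 CPM in Ni. The groups overlapped, with a log2 fold change of -0.19 ± 0.14 (SE, n = 3 per group) and an adjusted p of 0.575 (edgeR). Tfr2, a second receptor for transferrin, was at 18.0, 16.5 and 18.4 CPM in control and at 23.1, 22.97 and 19.5 CPM in Ni. Its Ni libraries were all above the controls, with a log2 fold change of 0.31 ± 0.12 (SE, n = 3 per group) and an adjusted p of 0.344 (edgeR).

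Levels were compared between genes per transcript length, on the deposited FPKM scale. The median FPKM over the 6 libraries was 1783 for B2m, 1576 for Actb, 187 for Ppia, 164 for Hprt, 99.7 for Gusb, 72.7 for Ywhaz, 2.74 for Gapdh and 1.68 for Tbp. In this order the ranges over libraries overlapped between B2m and Actb and between Ppia and Hprt, and no other neighbours overlapped. The length behind the deposited FPKM was 13576 bases for Tbp, 7.18-fold its principal transcript of 1891 bases, and 3.25-fold and 3.00-fold the principal transcript for Gapdh and Ppia. With CPM per kilobase of the principal transcript instead, Tbp, at a median of 12.1, came before Gapdh, at 8.97, Actb, at 2221, before B2m, at 1792, and Gusb, at 171, before Hprt, at 164. The place of a reference gene among the others by level therefore depended on the length assumed. A CV cannot depend on it, because the same length divides every library. On FPKM the CV was 179% for Gapdh and 4.84% for Ywhaz.

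Because qPCR uses 1 reference gene or the mean of a few, the genes were also measured against each other, by the SD over the 6 libraries of the log2 ratio of each pair. The lowest values were 0.08 for Tbp with Ywhaz and 0.08 for B2m with Ywhaz, followed by 0.10 for B2m with Tbp and 0.12 for Ywhaz with Gusb. Every pair with Gapdh was between 1.72 and 1.96, while the highest value without Gapdh was 0.44, for Hprt with Ppia. Actb and Hprt, which both were highest in control replicates 1 and 2, had an SD of 0.17 against each other but of 0.31 and 0.20 against Ywhaz. Averaged over the partners other than Gapdh, the SD was lowest for Ywhaz, at 0.19, then 0.20 for Gusb, 0.22 for B2m, 0.22 for Tbp, 0.25 for Hprt, 0.31 for Actb and 0.37 for Ppia.

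**Figure D4:**
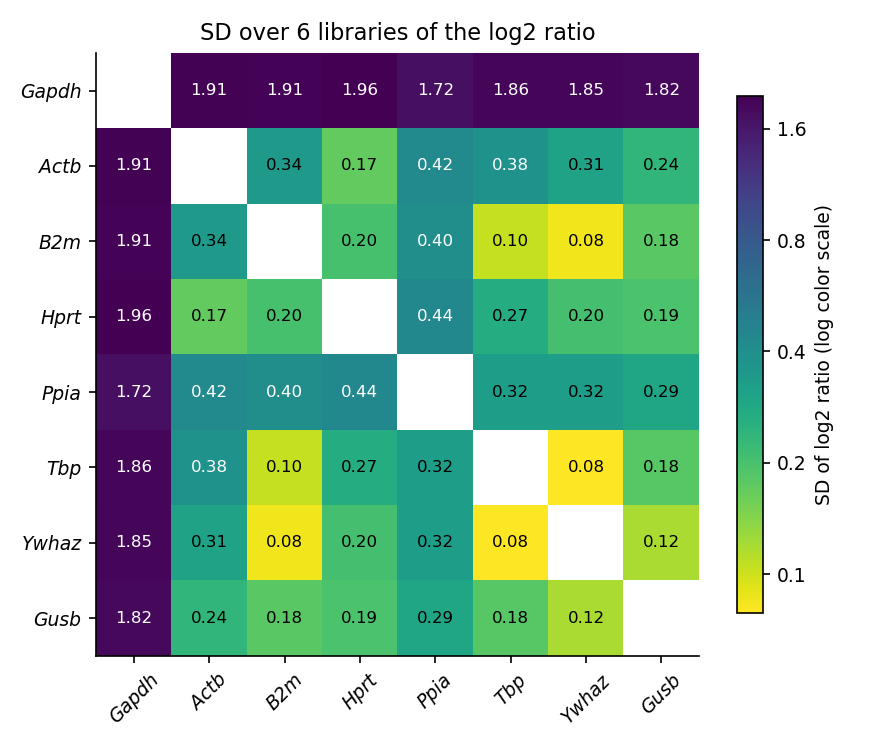
SD over the 6 libraries of the log2 ratio for each pair of reference genes, as numbers and as a log color scale from low (yellow) to high (dark). The pairs among Tbp, Ywhaz and B2m are at 0.08 to 0.10, and all pairs with Gapdh are above 1.7.

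The effect of the choice of reference gene was measured on 3 targets that the study examined in these cells. They were Col1a1, the main collagen chain of bone matrix, Alpl, the alkaline phosphatase of mineralizing cells, and Ilk, integrin-linked kinase. The study prioritized Ilk in part from its rise in these same libraries. By CPM all 3 targets were already higher in Ni without overlap of the groups, at log2 fold changes of 1.13, 1.07 and 1.39. A higher ratio to an even reference follows from that, so the ratios compare the references and add no evidence on the targets. The log2 ratio of target to reference counts needs no library scaling. It stands in for a qPCR difference only where the counts of both genes follow their RNA. For Gapdh this is not known, because reads of Gapdh and of Gm13394 cannot be told apart here. Gapdh alone held from 1.31% to 24.3% of the summed counts of the gene and its copies. Its ratios therefore describe the listed counts and not what qPCR with Gapdh would give. Each of the 24 pairs of a target and a reference gene was compared between the groups.

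Relative to Gapdh, log2 Col1a1 was 8.97, 8.94 and 9.59 in control and 9.21, 5.66 and 10.18 in Ni. Ni replicate 2 was far below every other library and the groups overlapped. The difference, Ni minus control, was -0.81 with an exact permutation p of 0.9. Relative to Ywhaz, log2 Col1a1 was 3.83, 4.05 and 4.86 in control and 5.60, 5.38 and 5.45 in Ni, and all 3 Ni libraries were above all 3 controls. That difference was 1.24, with an exact two-sided permutation p of 0.1, the smallest possible, and 0.114 after Benjamini-Hochberg adjustment over the 24 pairs.

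With each of the 7 references other than Gapdh, the Ni libraries lay above the controls for all 3 targets. The differences ran from 1.19, with Tbp, to 1.62, with Actb, for Col1a1, from 1.12 to 1.55 for Alpl and from 1.39 to 1.82 for Ilk. The largest difference for each target was that with Actb. With Gapdh the differences were -0.81, -0.88 and -0.61, and without Ni replicate 2 they were 0.53, 0.53 and 0.47. With Gapdh and its copies summed they were 0.58, 0.51 and 0.78, below those with any other reference. The groups then overlapped for Col1a1 and Alpl, each with an exact permutation p of 0.2, and not for Ilk. Ilk rested on 11 to 48 counts per library. The study reports higher Ilk with low-dose Ni by qPCR, which was normalized to Gapdh. The negative difference for Ilk with the counts of Gapdh alone is therefore not a reading of that measurement.

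**Figure D5:**
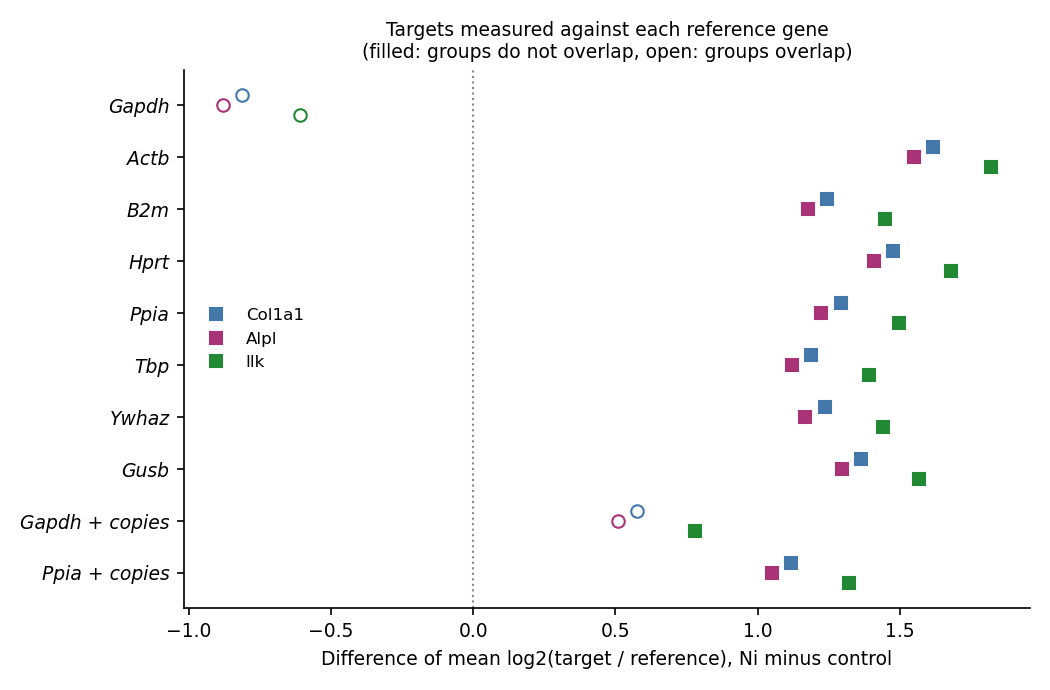
Difference between Ni and control in the mean log2 ratio of Col1a1, Alpl and Ilk (colors) to each reference gene, and to Gapdh and Ppia with their copies added (lowest lines); filled squares mark pairs whose groups do not overlap and open circles pairs whose groups overlap. The points for the 7 references other than Gapdh lie between 1.12 and 1.82, those for Gapdh below 0 and those for Gapdh with its copies between 0.51 and 0.78.

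Each reference gene was then read beside the genes it works with. Of 17 glycolysis genes other than Gapdh, 9 had an unadjusted p under 0.05 with higher levels in Ni, against 7.59% of all genes, 0 were lower at that level, and 0 passed the adjusted threshold (edgeR). Their median log2 fold change was 0.32, against -0.01 over all genes. Pkm was at 1769 ± 289 CPM in control and 2180 ± 53.2 CPM in Ni (SD, n = 3), and Aldoa at 1352 ± 73.7 and 1482 ± 77.0 CPM. Ldha, lactate dehydrogenase, was at 1239 ± 305 CPM in control and 1620 ± 97.2 CPM in Ni (SD, n = 3), and Pgk1, phosphoglycerate kinase, at 1031 ± 182 and 1322 ± 91.0 CPM. The summed CPM of the 17 genes, without TMM scaling, was 8026 and 7952 in control replicates 1 and 2, 10216 in control replicate 3 and 10512 to 10835 in Ni. In this sum control replicate 3 was nearer to the Ni libraries than to the other controls. The sum of Gapdh and its copies followed another order, with control replicate 3, at 687 CPM, nearer to the other controls.

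Among 9 tested actins and actin-binding proteins, 4 (Tmsb4x, Cfl1, Actr2 and Actr3) had an unadjusted p under 0.05 with lower levels in Ni, 0 were higher at that level, and 0 passed the adjusted threshold (edgeR), where 5.83% of all genes were lower at that level. Their list summed to 14152, 14430 and 10585 CPM in control, without TMM scaling, and to 9998 to 10485 CPM in Ni, with control replicate 3 beside the Ni libraries. The largest part of this sum in every library was Tmsb4x, thymosin β4, which binds actin monomers. It was at 7632, 7675 and 4068 CPM in control and at 4507, 3694 and 4169 CPM in Ni. Its means were 6458 ± 2070 CPM in control and 4123 ± 408 CPM in Ni (SD, n = 3). Cfl1, cofilin, which severs filaments, was at 1554 ± 167 and 1221 ± 138 CPM. Of the 9 genes, 4 had a positive log2 fold change. Among these was Acta2, smooth muscle actin, at 902 ± 386 and 1201 ± 49.9 CPM with an adjusted p of 0.512 (edgeR). Actg1, the cytoplasmic γ-actin and the closest relative of Actb in function, was at 1437 ± 42.2 CPM in control and 1447 ± 63.7 CPM in Ni. Its CV of 3.37% was below that of every one of the 8 reference genes.

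The counts for the other families are read against 13.4% of all genes at an unadjusted p under 0.05 in either direction and 5.83% in the lower one, and the difference between families was not tested. Of 15 genes of MHC class I and its assembly none had an unadjusted p under 0.05, and the median CV was 7.55%, with Calr, calreticulin, at 872 ± 12.1 and 923 ± 44.8 CPM, and H2-D1, a class I heavy chain, at 518 ± 18.7 and 481 ± 32.7 CPM in control and Ni (SD, n = 3). Of 12 lysosomal glycosidases, relatives of Gusb in role, 1, Idua, was lower at an unadjusted p under 0.05, and Hexa, a hexosaminidase, was at 739 ± 55.4 and 676 ± 30.2 CPM. Of 8 genes of purine salvage and nucleotide supply around Hprt 1 was lower at that level, Adk, adenosine kinase, at 112 ± 26.0 and 85.5 ± 2.25 CPM. Of 11 further cyclophilins 1 was lower, Ppif, and 1 was higher, Ppic, at 115 ± 26.6 and 175 ± 25.4 CPM. Of 13 tested genes of TFIID, the complex that holds Tbp, 1, Taf12, was lower, and Taf1, its largest subunit, was at 53.1 ± 3.48 and 58.0 ± 4.07 CPM. Of 6 further 14-3-3 genes 1 was lower, Ywhag, at 388 ± 60.1 and 312 ± 29.3 CPM. All 6 had a negative log2 fold change, as had 51.9% of all genes tested. None of these genes passed the adjusted threshold (edgeR).

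A wider list of 43 genes in use as reference genes matched 42 genes. Their median CV was 7.64%, with a range from 2.72% to 26.1%, and 4 of the 42 had an unadjusted p under 0.05, all higher in Ni, against 7.59% of all genes in that direction. These 4 were Pgk1, Ldha, Tuba1a and Ctnnb1, of which the first pair are glycolysis genes given above. The most even were Tubb5, a β-tubulin, with a CV of 2.72% at a mean of 763 CPM, Chmp2a, a subunit of the membrane-cutting ESCRT machinery, with 3.44% at 82.7 CPM, and Psmb4, a proteasome subunit, with 3.59% at 145 CPM. These CVs were lower than that of Ywhaz. The least even were Rps18, a ribosomal protein gene, with 26.1% at 14.8 CPM, Tuba1a, an α-tubulin, with 21.1% at 231 CPM, and Ldha, with 20.3% at 1430 CPM. Per length, Rps18 was listed at a median of 5.57 FPKM, against 628 FPKM for Rplp0, another ribosomal protein gene, and other genes hold 86.7% of its 50-base stretches. For Tuba1a the share was 75.5%, whereas it was 0.115% for Tubb5, 3.67% for Chmp2a and 0% for Psmb4.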

How the data were processed

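The authors deposited raw counts of reads per gene and FPKM values for the same genes, aligned to GRCm38 per the labels; aligner, counter and strand setting are not given in the sources used here. Sequences and transcripts came from GENCODE M21, whose positions equal the deposited ones for all 8 reference genes. A 50-base stretch counted as shared when it occurs in a transcript of another gene. The 6 libraries, 3 per group, were compared with edgeR 4.0.16 in R 4.3.3 (filterByExpr, TMM, robust quasi-likelihood test, prior count 0.125), adjusted over all 14624 genes tested. DESeq2 1.42.0 and limma 3.58.1 on log2(FPKM + 1) and log2(FPKM + 0.1) were alternatives. The fits were tested on simulated data. CVs and pair SDs carry no test. Ratios used exact two-sided permutation tests. The members and the lists were chosen with earlier results of these data known. Named are all members, genes from among the 4 of each list with the highest mean CPM, and from the wider list the 3 with the lowest and the 3 with the highest CV. Lrrc58, Rplp0, Idua, Ppif, Taf12, Actr2, Actr3, Ctnnb1, Pdgfra, Pdgfrb, Lum and the main copy of Gapdh and of Ppia were chosen after their values were seen. Adding copies to a gene, and scaling a fit to the 7 reference genes other than Gapdh, were chosen after seeing the data. Of the 5 genes most like Gapdh over the libraries, 1 is not reported here.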

Additional observations from a re-analysis of the deposited data

How the results depend on the processing

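Whether the replicate numbers pair the libraries was not settled. Correlations of same-numbered deviations from the group means were 0.01, 0.26 and 0.14, and libraries of different numbers were not compared in this way. The main fit used no block. With the replicate number as a block, 315 genes passed an adjusted p of 0.05 (edgeR). Of the 8 reference genes 2, Actb and Hprt, then had an unadjusted p under 0.05. Gapdh with its copies passed, at a log2 fold change of 0.60 (adjusted p of 0.0368, edgeR). No single reference gene passed an adjusted p of 0.05 with the block. Under DESeq2's Wald test 257 genes passed and 3 reference genes had an unadjusted p under 0.05, and Gapdh with its copies was at 0.60. With no filter on low counts, 1027 genes passed, 3057 had an unadjusted p under 0.05, 2 reference genes did, and Actb passed at -0.44 (adjusted p of 0.0218, edgeR). The count of reference genes was 2 with library totals and with copies added, and 0 with limma on log2(FPKM + 1), where 2 of all genes passed, and on log2(FPKM + 0.1). Scaling to the 7 reference genes other than Gapdh moved the median log2 fold change of all genes by 0.16, left 0 reference genes at an unadjusted p under 0.05 and turned B2m to 0.11, Ppia to 0.079 and Ywhaz to 0.11. Adding copies turned Ppia to 0.065 and the ratios of Col1a1, Alpl and Ilk to Gapdh to 0.58, 0.51 and 0.78. The cause of these changes was not tested.

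Leaving out 1 library at a time, the count of genes at an adjusted p under 0.05 ran from 0 to 2283 and at an unadjusted p from 868 to 4125, the highest without control replicate 3, and that of reference genes from 0 to 3. Log2 fold changes ran from -0.62 to -0.33 for Actb, from -0.44 to -0.21 for Hprt, from -0.11 to 0.051 for B2m, from -0.27 to 0.12 for Ppia, from -0.09 to 0.07 for Tbp, and from 0.52 to 0.69 for Gapdh with its copies. Ratios to Gapdh ran from -1.73 to 0.53 for Col1a1, -1.81 to 0.53 for Alpl and -1.26 to 0.47 for Ilk, positive without Ni replicate 2. With 3 libraries per group the permutation tests cannot go below 0.1, and Ilk and Gapdh rest on few counts.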

Other observations

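Outside the lists, the most even genes among the 2108 with a mean of at least 100 CPM were Snrnp200, an RNA helicase of the spliceosome, with a CV of 0.883%, Sdhd, a subunit of succinate dehydrogenase, with 1.48%, Ipo9, a nuclear import receptor, with 1.67%, Ubr2, a ubiquitin ligase, with 1.76%, and Otulinl, with 2.19%. Snrnp200 was at 149.7, 151 and 150.03 CPM in control and at 151, 153 and 149 CPM in Ni. These genes were chosen for a low CV, so their values are a description. All 5 had a lower CV than each of the 8 reference genes, and their log2 fold changes ran from -0.03 to 0.02.

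Among the genes whose log2 CPM over the 6 libraries was most like that of Gapdh, by Pearson's r, were Wtip (0.990), 4930473A02Rik (0.982), Gm7666 (0.981) and Pitx1 (0.975). Wtip was at 48.2, 49.7 and 49.0 CPM in control and at 52.2, 61.0 and 48.2 CPM in Ni. Ni replicate 2 was the highest library and Ni replicate 1 the next for Wtip as for Gapdh. The highest library was 1.26-fold above the lowest for Wtip, against 25.4-fold for Gapdh. These genes were chosen for a high r, so their likeness to Gapdh is a description.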
